A study of Mus musculus with 8 samples.

Results

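The MHC class II pathway genes described here are 10 genes of the deposited array table, chosen by symbol among 24675 named genes: H2-Aa, H2-Ab1, H2-Eb1, H2-Eb2, H2-DMa, H2-DMb1, H2-Ob, Cd74, Ciita and Ctss. They were measured in total RNA of whole subcutaneous tumors grown from B16-F10, a mouse melanoma cell line, in female C57BL/6J mice aged 9 weeks at injection. One group of 4 tumors came from mice on a high fat/high cholesterol diet (HFHCD, called HFD in the sample titles) and the other group of 4 from mice on chow diet (CD). Both groups ate their diet for 2 weeks before the cells were injected, received no other treatment that the labels name, and were harvested at day 9. Each tumor was hybridised to 1 Affymetrix MouseGene2.0ST array, and values are log2 levels made by the authors with RMA, so a difference of 1 is a doubling. The line is a single cultured melanoma and the host cells of each tumor were not separated, so every value averages over melanoma cells and all host cells.

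MHC class II molecules carry peptides of proteins taken up from outside the cell to CD4+ T cells. An alpha and a beta chain assemble on the invariant chain CD74 and travel to endosomes, where proteases such as cathepsin S trim CD74 to a short peptide. The exchange factor H2-DM swaps that peptide for antigen, and H2-O restrains H2-DM. The transactivator CIITA switches on the genes of the chains, CD74 and H2-DM together with factors that sit on shared promoter boxes. In a tumor the pathway is best known in macrophages, dendritic cells and B cells, and interferon-γ induces it in many other cells.

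Of the 10 genes, 7 lie in the MHC on mouse chromosome 17, and Ctss lies on chromosome 3. RefSeq promoters (GRCm38.p6, the 250 bases before the start of transcription) were used for 7 of the 10 genes. H2-Ab1 and Ciita had no promoter in the set used, and that of Cd74 was left out by choice, so these genes were not searched. They are shown because class II genes share the X box and Y box, the sites of the RFX and NF-Y factors through which CIITA acts. Capitals mark GNAAC, letters within the X box, and GATTGG, the core of the Y box, printed 5′ to 3′ on the strand of the gene. The first bases of GNAAC and GATTGG were 32 apart in H2-Aa and H2-DMb1, 31 apart in H2-Eb1 and H2-Eb2 and 29 apart in H2-Ob.
H2-Aa (chr17:34287847-34287924, minus strand): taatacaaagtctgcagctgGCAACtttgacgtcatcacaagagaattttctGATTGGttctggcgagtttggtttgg
H2-Eb1 (chr17:34305756-34305832, plus strand): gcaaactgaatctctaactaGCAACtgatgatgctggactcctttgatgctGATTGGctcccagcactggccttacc
H2-Eb2 (chr17:34325523-34325599, plus strand): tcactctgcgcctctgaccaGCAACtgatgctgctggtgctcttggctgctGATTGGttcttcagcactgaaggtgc
H2-DMb1 (chr17:34153077-34153154, plus strand): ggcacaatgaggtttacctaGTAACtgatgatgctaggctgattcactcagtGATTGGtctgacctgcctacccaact
H2-Ob (chr17:34238798-34238872, plus strand): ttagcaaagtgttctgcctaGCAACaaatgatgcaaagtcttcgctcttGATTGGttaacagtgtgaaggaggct

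GNAAC stood 81 bases before the start in H2-Aa, 91 in H2-Eb1, 132 in H2-Eb2, 94 in H2-DMb1 and 87 in H2-Ob. These 5 genes held the pair with first bases 20 to 40 apart, whereas neither of the windows of H2-DMa did. Of 32851 promoter windows of the same length, 344 (1.05%) held the pair on either strand and 14.6% held GATTGG alone. The letters searched for were chosen after these promoters had been read, so their presence in the 5 genes is a description. The window of Ctss held no such pair. It held GAAA, any 2 bases and GAAA again, letters of an interferon-stimulated response element, 21 bases before its start. Such letters were in 2.98% of all windows on either strand, and the capitals mark them.
Ctss (chr3:95526745-95526785, plus strand): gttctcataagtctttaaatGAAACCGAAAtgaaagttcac

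Log2 values over all probe sets spanned 2.22 to 14.05, with a median of 5.04 to 5.21 per array. Pairs of arrays correlated at 0.991 to 0.994 within HFHCD and at 0.974 to 0.990 within CD. The 10 melanocyte lineage markers, which the injected cells express, averaged 11.50 to 11.63 in HFHCD tumors and 11.39 to 11.56 in CD tumors. A level of 4.5, below which 40% of all values lie, was taken as dim. HFHCD was compared with CD by limma over all 8 arrays, and the threshold of the study's methods, an unadjusted p under 0.05, decided whether a gene was called. On this rule 8.68% of the 24675 genes were called, 3.91% lower and 4.76% higher on HFHCD. None reached an adjusted p under 0.05 in limma (Benjamini-Hochberg, smallest 0.320), and no call below withstands adjustment over all genes. The titles number the tumors within a diet but name no batch. The limma p-values set a difference against the spread between these tumors only, which limma estimates partly from all genes.

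Of the 10 class II pathway genes, 6 were called lower in tumors from the HFHCD group and 0 higher, against 3.91% of all genes called lower. They were the chain genes H2-Aa, H2-Ab1 and H2-Eb1, the invariant chain gene Cd74, the protease gene Ctss and the exchange-factor gene H2-Ob. All 10 had a lower mean on HFHCD than on CD, as did 49.3% of all genes. The median log2 fold change of the 10 genes was -0.76, and that of all genes was 0.00. Without CD 3 the median of the 10 genes was -0.44. In 3 genes, H2-Aa, Cd74 and Ctss, every HFHCD tumor lay below every CD tumor, which was so for 2.27% of all genes, and in 0 genes did every HFHCD tumor lie above the CD tumors (2.92% of all genes). Lower RNA of these genes in a whole tumor cannot be told apart from fewer cells that express them.

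**Figure D1:**
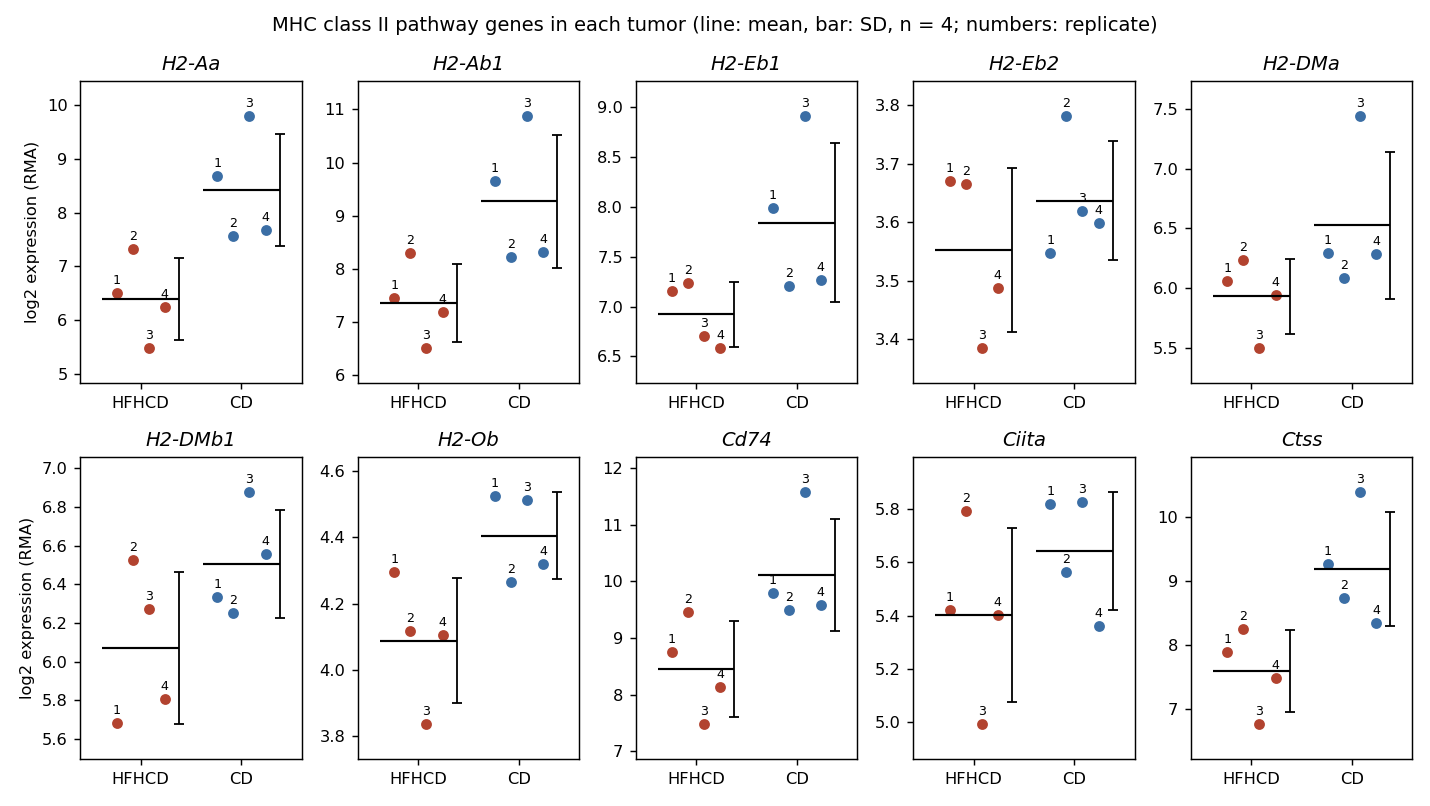
Log2 expression (RMA) of each of the 10 genes in 4 HFHCD and 4 CD tumors, with the replicate number beside each point, a line at the mean and a bar of 1 SD; the vertical axes differ between genes. H2-Aa, Cd74 and Ctss have no overlap between the diets, HFHCD 3 is the lowest of the 8 tumors in 8 genes and CD 3 the highest in 8 genes.

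The largest difference among the 10 genes was in H2-Aa, which encodes the alpha chain of I-A, the class II molecule of C57BL/6 mice. H2-Aa had log2 levels of 6.50, 7.33, 5.47 and 6.25 in HFHCD tumors 1 to 4, against 8.68, 7.56, 9.80 and 7.68 in CD tumors 1 to 4. The highest HFHCD tumor, number 2, lay just below the lowest CD tumor, which also carries the number 2. Its mean was 6.39 ± 0.76 on HFHCD and 8.43 ± 1.05 on CD (SD, n = 4 each), 4.12-fold lower on HFHCD. The log2 fold change was -2.04 (standard error 0.52, 95% confidence interval -3.22 to -0.86, limma unadjusted p = 0.00336, adjusted p = 0.423). An exact two-sided permutation test over the 70 assignments of the tumors gave p = 0.0286, the smallest that 4 tumors against 4 allow.

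H2-Ab1, the beta chain of I-A and the partner of H2-Aa, had log2 levels of 7.46, 8.29, 6.51 and 7.19 in HFHCD tumors 1 to 4, against 9.66, 8.23, 10.88 and 8.33 in CD tumors 1 to 4. Here HFHCD 2 passed CD 2 by a small margin, and the other 3 HFHCD tumors lay below all CD tumors. In limma it fell by 1.91 on the log2 scale (standard error 0.59, limma unadjusted p = 0.00940, adjusted p = 0.463, exact permutation p = 0.0571), or 3.76-fold lower on HFHCD.

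H2-Eb1 encodes the beta chain of I-E, a molecule that C57BL/6 mice do not display because their alpha chain gene H2-Ea is defective. Its log2 levels were 7.16, 7.24, 6.71 and 6.58 in HFHCD tumors 1 to 4, against 7.98, 7.21, 8.91 and 7.27 in CD tumors 1 to 4. HFHCD 2 again lay above CD 2. The log2 fold change was -0.92 (standard error 0.35, limma unadjusted p = 0.0269, adjusted p = 0.524, exact permutation p = 0.0571), 1.89-fold lower on HFHCD. This call rested on single tumors, since limma's unadjusted p was 0.0524 without CD 1, 0.0663 without HFHCD 3 and 0.0721 without HFHCD 4. Without CD 3 it was still called, with a log2 fold change of -0.56.

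H2-Eb2 encodes a second I-E-like beta chain. It was dim in every tumor, with log2 levels of 3.67, 3.67, 3.38 and 3.49 in HFHCD tumors 1 to 4, against 3.55, 3.78, 3.62 and 3.60 in CD tumors 1 to 4. The diets overlapped and limma's log2 fold change was -0.08 (95% confidence interval -0.31 to 0.14, unadjusted p = 0.417), so at this brightness no difference was detectable. H2-Eb1 and H2-Eb2 are related in sequence, as are H2-DMb1 and H2-DMb2, and how far probes of one bind RNA of the other was not tested.

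Cd74, the invariant chain gene and a surface receptor for the cytokine MIF, followed the I-A chains. Log2 levels of Cd74 were 8.75, 9.46, 7.48 and 8.13 in HFHCD tumors 1 to 4, against 9.79, 9.49, 11.58 and 9.58 in CD tumors 1 to 4. The diets did not overlap, although HFHCD 2 and CD 2 were nearly equal. Cd74 fell by 1.66 on the log2 scale (standard error 0.53, limma unadjusted p = 0.0112, adjusted p = 0.466, exact permutation p = 0.0286), or 3.15-fold lower on HFHCD.

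Ctss encodes cathepsin S, the protease that trims CD74 late in its breakdown in most antigen-presenting cells. It had log2 levels of 7.90, 8.25, 6.77 and 7.48 in HFHCD tumors 1 to 4, against 9.26, 8.74, 10.40 and 8.34 in CD tumors 1 to 4. Every HFHCD tumor was below the lowest CD tumor, number 4. Ctss fell by 1.59 on the log2 scale (standard error 0.45, limma unadjusted p = 0.00566, adjusted p = 0.437, exact permutation p = 0.0286), 3.01-fold lower on HFHCD.

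The exchange factors had log2 fold changes nearer to 0. H2-Ob, the beta chain of the H2-DM inhibitor H2-O, had log2 levels of 4.30, 4.12, 3.84 and 4.10 in HFHCD tumors 1 to 4, against 4.52, 4.26, 4.51 and 4.32 in CD tumors 1 to 4. The 2 CD tumors with the highest values were the only arrays on which it passed the dim level of 4.5. Its log2 fold change was -0.32 (standard error 0.12, limma unadjusted p = 0.0232, adjusted p = 0.505, exact permutation p = 0.0571). That call was lost without CD 1 (limma unadjusted p = 0.0501), without CD 3 (0.0571) and without HFHCD 3 (0.0658).

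H2-DMa and H2-DMb1 encode the alpha and beta chains of H2-DM and did not pass the threshold. H2-DMa had log2 levels of 6.06, 6.23, 5.50 and 5.94 in HFHCD tumors 1 to 4, against 6.29, 6.08, 7.44 and 6.28 in CD tumors 1 to 4. CD 3 stood alone above the other 7 tumors, which lay within 1 log2 unit of each other. The log2 fold change of H2-DMa was -0.59 (95% confidence interval -1.24 to 0.05, limma unadjusted p = 0.0677). H2-DMb1 had log2 levels of 5.68, 6.53, 6.27 and 5.81 in HFHCD tumors 1 to 4, against 6.34, 6.25, 6.88 and 6.56 in CD tumors 1 to 4. HFHCD 2 and HFHCD 3 both lay above the lowest CD tumor, and the log2 fold change of H2-DMb1 was -0.43 (95% confidence interval -0.90 to 0.03, limma unadjusted p = 0.0640). Both intervals include 0 and also decreases of the size seen for H2-Ob. Without CD 3 the log2 fold change of H2-DMa was -0.29 (limma unadjusted p = 0.126). Without CD 2 both genes passed limma's threshold, with an unadjusted p of 0.0365 for H2-DMa and 0.0466 for H2-DMb1. H2-DMb1 also passed without HFHCD 2, at an unadjusted limma p of 0.0160.

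Ciita, the transactivator of the pathway, had log2 levels of 5.42, 5.79, 4.99 and 5.40 in HFHCD tumors 1 to 4, against 5.82, 5.57, 5.83 and 5.36 in CD tumors 1 to 4. In Ciita 3 of the HFHCD tumors lay above the lowest CD tumor. The log2 fold change was -0.24 (95% confidence interval -0.63 to 0.15, limma unadjusted p = 0.198, exact permutation p = 0.314), and it passed limma's threshold only without HFHCD 2, at an unadjusted p of 0.0498. The array reads total RNA of the gene, so the transcripts that start at its different promoters in myeloid cells, B cells and interferon-treated cells were not told apart.

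The same tumors often stood at the ends of each diet's range. HFHCD 2 was the highest HFHCD tumor in 8 of them and HFHCD 3 the lowest in 8, while CD 3 was the highest CD tumor in 8 and CD 2 the lowest in 7. The spread between tumors was larger on CD than on HFHCD for 6 of the 10 genes and for 69.9% of all genes. The tumors CD 1 and CD 3 held the highest levels of H2-Aa, H2-Ab1, H2-Eb1, Cd74 and Ctss. Without both of them 4 of the 10 genes were still called lower by limma, against 7.2% of all genes in that comparison. Their log2 fold changes were then -1.23 for H2-Aa (unadjusted p = 0.0162), -0.92 for H2-Ab1 (0.0479), -1.08 for Cd74 (0.0421) and -0.94 for Ctss (0.0276), with all p from limma. H2-Eb1 and H2-Ob did not pass limma's threshold without these tumors, at unadjusted p of 0.135 and 0.158, and the median of the 10 genes was -0.32.

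**Figure D2:**
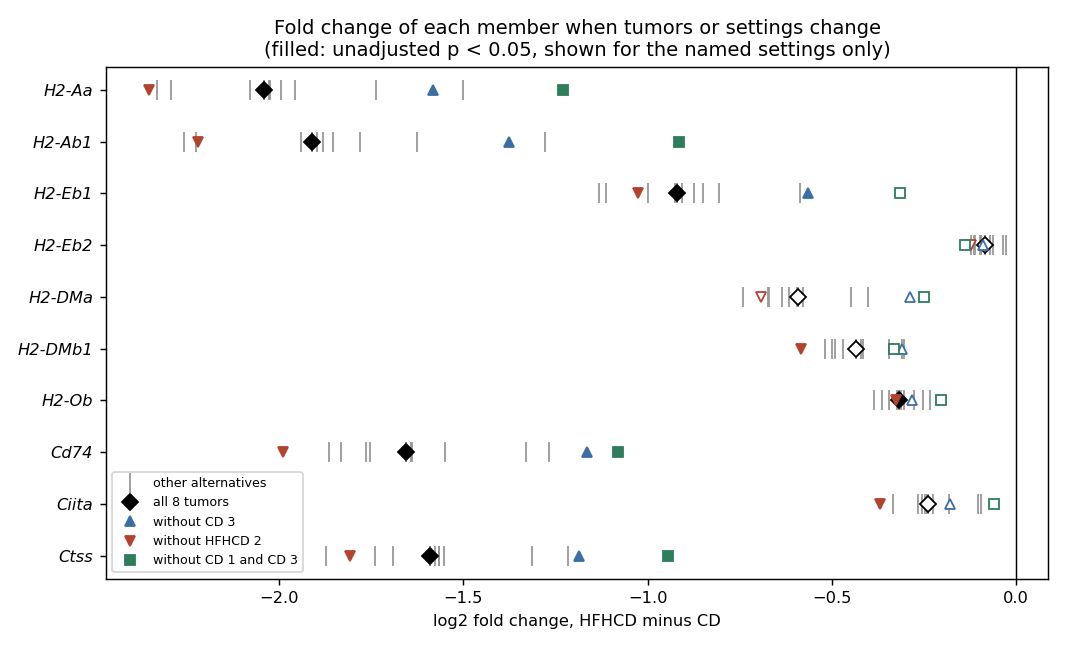
Log2 fold change (HFHCD minus CD) of each of the 10 genes with all 8 tumors, without CD 3, without HFHCD 2, without CD 1 and CD 3, and under the other alternatives (grey ticks); symbols of the named settings are filled at a limma unadjusted p under 0.05. H2-Aa, H2-Ab1, Cd74 and Ctss stay filled and negative in each named setting, while without CD 1 and CD 3 H2-Aa moves to -1.23 and H2-Eb1 loses its fill.

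Other genes of the pathway were taken as 4 lists of 40 measured genes in all. Of these, 10 were called lower, 2 higher and 28 did not pass limma's threshold, and their median log2 fold change was -0.03. Of all genes 3.91% were called lower and 4.76% higher. Leaving out 1 tumor gave 3 to 11 lower genes, with 4 without CD 3 and 3 without HFHCD 4. Of all genes, 2.56% to 7.16% were then called lower. Without CD 1 and CD 3 only Jak2 was called lower, against 7.2% of all genes in that comparison, and the 2 genes Cst3 and Ctsk were called higher. These 3 genes were named after their values were seen.

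Among the remaining chain and exchange-factor genes, H2-DMb2, a second beta chain of H2-DM, was lower. It had log2 levels of 4.29, 5.31, 4.78 and 5.29 in HFHCD tumors 1 to 4, against 5.86, 5.38, 6.58 and 5.23 in CD tumors 1 to 4, with HFHCD 2 and HFHCD 4 above CD 4. Its log2 fold change was -0.84 (standard error 0.32, limma unadjusted p = 0.0262, adjusted p = 0.522), and it was not called without CD 3. H2-Oa, the alpha chain of H2-O, had a log2 fold change of -0.03 and the defective H2-Ea of 0.05, and neither passed.

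Of 15 genes of class II transcription and interferon-γ signalling, 4 were lower, 2 were higher and 9 did not pass. Irf8, a transcription factor of the macrophage and dendritic cell lineages, fell by 1.05 on the log2 scale (standard error 0.42, limma unadjusted p = 0.0320), and the interferon-induced factor gene Irf1 fell by 0.80 (standard error 0.30, limma unadjusted p = 0.0243). Irf1 ran from 6.61 to 7.59 in HFHCD tumors and from 7.40 to 8.63 in CD tumors, so that HFHCD 2 overlapped the CD range. The other lower genes, named after their values were seen, were the myeloid factor gene Spi1 (-0.43) and the receptor gene Ifngr1 (-0.27). Limma's unadjusted p was 0.0466 for Spi1 and 0.0498 for Ifngr1. Neither was called without CD 1, without CD 3 or without both, and Ifngr1 was also lost without HFHCD 2. Rfxank, a subunit of the RFX complex on the X box, rose by 0.28 (limma unadjusted p = 0.0132), and Nfya, a subunit of NF-Y on the Y box, rose by 0.38 (limma unadjusted p = 0.0320). In both genes the lowest HFHCD tumor lay above the highest CD tumor. Nfya was not called without CD 1, without CD 3 or without HFHCD 2, and neither gene was called without CD 1 and CD 3 together. The interferon-γ gene Ifng, named after its values were seen, had a log2 fold change of 0.10 and did not pass.

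Of 13 genes of antigen processing and class II turnover, 3 were lower and 0 higher. Ctsc, a protease that activates other lysosomal and granule proteases, fell by 0.41 (limma unadjusted p = 0.00779), and Sppl2a, the intramembrane protease that clears the membrane-bound CD74 fragment left by other proteases, fell by 0.34 (limma unadjusted p = 0.00738). The diets did not overlap in either. Lgmn, which encodes the endosomal protease legumain, fell by 0.48 (limma unadjusted p = 0.0289). Lgmn was not called without CD 1, without CD 3 or without HFHCD 2, whereas Ctsc and Sppl2a were. None of these 3 genes was called without CD 1 and CD 3 together. Ctsl, which cuts CD74 in thymic epithelium, had a log2 fold change of -0.27 and did not pass (limma unadjusted p = 0.0615). Of 9 genes of class II receptors, CD74 partners and costimulation, the B7 genes Cd86 (-0.54) and Cd80 (-0.38) were lower and the other 7 did not pass. The limma unadjusted p was 0.0287 for Cd86 and 0.0304 for Cd80. Neither was called without CD 3, without HFHCD 2 or without CD 1 and CD 3 together, and Cd86 was also lost without CD 1. Cd86 lay under the dim level of 4.5 in HFHCD tumors 2 to 4, at 4.43, 4.41 and 4.44. The class II receptor genes Cd4 and Lag3 had log2 fold changes of -0.22 and -0.30, with limma unadjusted p of 0.212 and 0.0600.

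**Figure D3:**
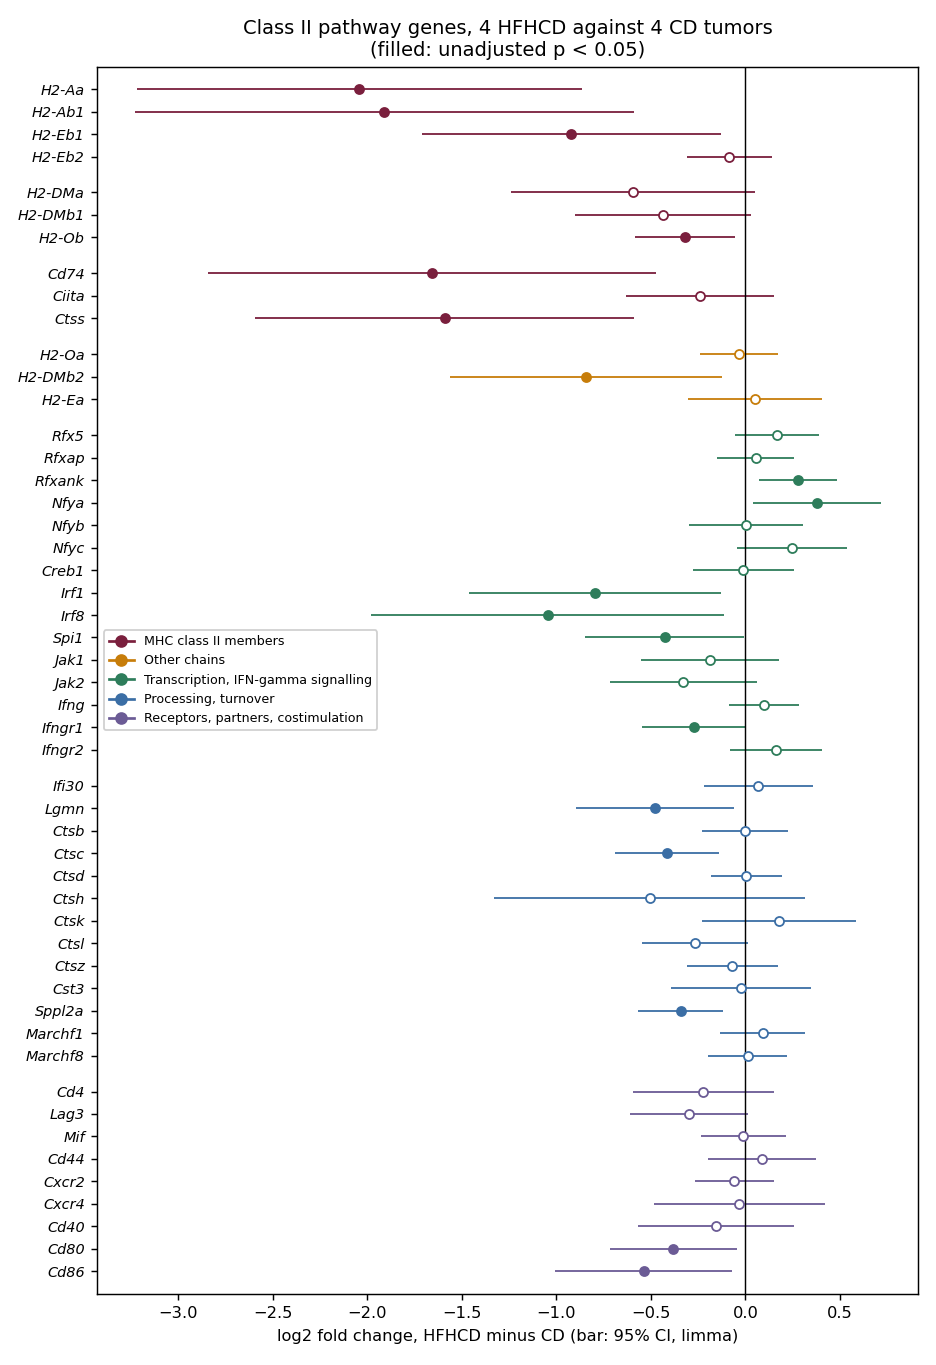
Log2 fold change (HFHCD minus CD, horizontal axis) with its 95% confidence interval from limma for the 10 genes (top 3 blocks) and 40 other genes of the pathway; points are filled at an unadjusted p under 0.05. H2-Aa and H2-Ab1 lie farthest to the left, H2-Eb2 and most of the other genes lie near 0, and Rfxank and Nfya are the filled points to the right of 0.

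MHC class I genes and interferon-γ-inducible genes, which share regulators with class II, were set beside the 10 genes. Of 22 genes of class I and its peptide loading 14 were lower and 0 higher, with a median log2 fold change of -0.80. The share of all genes called lower was 3.91%. Psmb8, an immunoproteasome subunit gene that lies between H2-DMb1 and H2-Ob, had a log2 fold change of -1.68. That of the peptide transporter gene Tap2 was -1.16, of the peptide-trimming Erap1 -1.11 and of the class I gene H2-T22 -1.10. Of 13 interferon-γ-inducible genes 10 were lower and 0 higher, with a median of -1.14, among them Cxcl9 (-1.77), Gbp3 (-1.75), Irgm1 (-1.14) and Cxcl10 (-1.07). These 10 include Irf1, which is also in the class II transcription list above. With CD 1 and CD 3 left out, 12 of the 22 class I genes and 6 of the 13 interferon-γ-inducible genes were called lower. In that limma comparison 7.2% of all genes were called lower. The class I list holds near-identical genes, whose single values are uncertain for that reason.

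Markers of host cells that carry class II moved as well, and their part in the values above was not tested. The mean of 12 monocyte and macrophage markers was 6.26, 6.16, 5.74 and 6.02 in HFHCD tumors 1 to 4, against 7.28, 6.30, 7.64 and 6.27 in CD tumors 1 to 4. CD 1 and CD 3 were the high tumors, as for H2-Aa and Cd74. Of the 12 markers 8 were lower and 0 higher, with a median log2 fold change of -0.88, among them Ccr2 (-1.34), Itgam (-1.26), Adgre1 (-1.22) and Csf1r (-0.79). Without CD 1 alone or CD 3 alone 4 of the 12 were called lower, and without both only Ccr2 and Csf1r were. Of all genes, 7.16% were called lower without CD 1, 3.55% without CD 3 and 7.2% without both.

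Relative to the mean of the macrophage markers in the same tumor, H2-Aa was 1.17 log2 units or less above it on HFHCD and 1.26 or more above it on CD. Per tumor the difference was 0.24, 1.17, -0.27 and 0.23 on HFHCD, against 1.40, 1.26, 2.17 and 1.41 on CD. The mean of these markers was itself 6.05 on HFHCD and 6.87 on CD, so a gene that differed by less than they did has a positive difference on this scale. The difference of the group means (HFHCD minus CD) was -1.22 for H2-Aa, -1.08 for H2-Ab1, -0.83 for Cd74, -0.77 for Ctss and -0.10 for H2-Eb1, and it was positive for H2-DMa, H2-DMb1 and Ciita. H2-Eb2 and H2-Ob were too dim to be read in this way. The log2 fold changes of the 12 markers ran from -1.34 to -0.13, so the differences depend on which markers form the mean. That of Ptprc, the gene of the leukocyte antigen CD45, was -1.72, between those of H2-Ab1 and Cd74. The differences from the marker mean were not tested.

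Of 10 dendritic cell markers, Cd209a (-0.44) and Siglech (-0.34) were lower, 0 were higher, and the median was -0.24. The mean of the 10 markers lay between 4.39 and 4.54 in HFHCD tumors and between 4.51 and 4.95 in CD tumors, near the dim level. Siglech was dim on every array, at 3.69 to 4.43. Cd209a was at 4.11 to 4.63 in HFHCD tumors and 4.48 to 5.08 in CD tumors. Both were called without CD 1 alone and without CD 3 alone, and neither without both tumors. Of 7 B cell markers 0 were called in either direction. The mean of the B cell markers was 3.75 to 3.89 in HFHCD tumors and 3.68 to 3.99 in CD tumors, and none passed 4.5 on at least 4 arrays, so these arrays say little about B cells. Among 9 T and NK cell markers the T cell genes Trac (-1.58) and Cd2 (-0.40) were lower, with the list mean at 4.24 to 4.32 in HFHCD tumors, against 5.76 in CD 3 and at most 4.66 in the other CD tumors. Trac was at 3.72 to 4.10 in HFHCD tumors, under the dim level, against 7.82 in CD 3 and 4.69 to 4.91 in the other CD tumors. Cd2 was called neither without CD 1, without CD 3 or without HFHCD 2, nor without CD 1 and CD 3, whereas Trac was called in each of these settings. Cd3g (-0.82) and Cd3e (-0.69) did not pass with all 8 tumors, at limma unadjusted p of 0.0615 and 0.1045. Cd3g was called lower without CD 1, without CD 3 and without both. It was under the dim level in every tumor but CD 3, at 5.91. The Langerhans cell markers Cd207 (-0.21) and Epcam (-0.26) did not pass. Of the melanocyte lineage markers Oca2 was higher (0.46) and 0 were lower.

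Markers of cell types that are not known for class II were also different, and their part in the values was not tested. Of 10 fibroblast markers 8 were lower, with list means of 5.89 to 6.00 in HFHCD tumors and 6.58 to 8.08 in CD tumors. Their median log2 fold change was -1.41, among them Dcn (-2.22), Col3a1 (-2.01), Postn (-1.31) and Lum (-0.94). In 7 of the 10 every HFHCD tumor lay below every CD tumor, which was so for 2.27% of all genes. Of 10 skeletal muscle markers 9 were lower, with list means of 5.04 to 5.64 in HFHCD tumors and 5.52 to 7.35 in CD tumors. Their median was -1.15, among them Myh4 (-2.87), Acta1 (-1.97), Tnni2 (-1.08) and Myh1 (-0.87). Dcn and Myh4 fell by more than H2-Aa, whose log2 fold change was -2.04. In both lists CD 3 was the highest tumor and CD 1 the next. Without both tumors 7 of the fibroblast and 2 of the muscle markers were called lower. Without CD 1 alone or CD 3 alone 6 and 5 of the muscle markers were. The shares of all genes called lower were 7.2% without both tumors, 7.16% without CD 1 and 3.55% without CD 3. Of 8 endothelial markers Pecam1 was lower, though not without CD 3 or without HFHCD 2. Without CD 1 alone 4 of the 8 were called lower, and without CD 1 and CD 3 the 2 genes Eng and Kdr were, Eng being named after its values were seen. Of 6 keratinocyte markers 0 were called, although their mean reached 7.82 in CD 3.

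**Figure D4:**
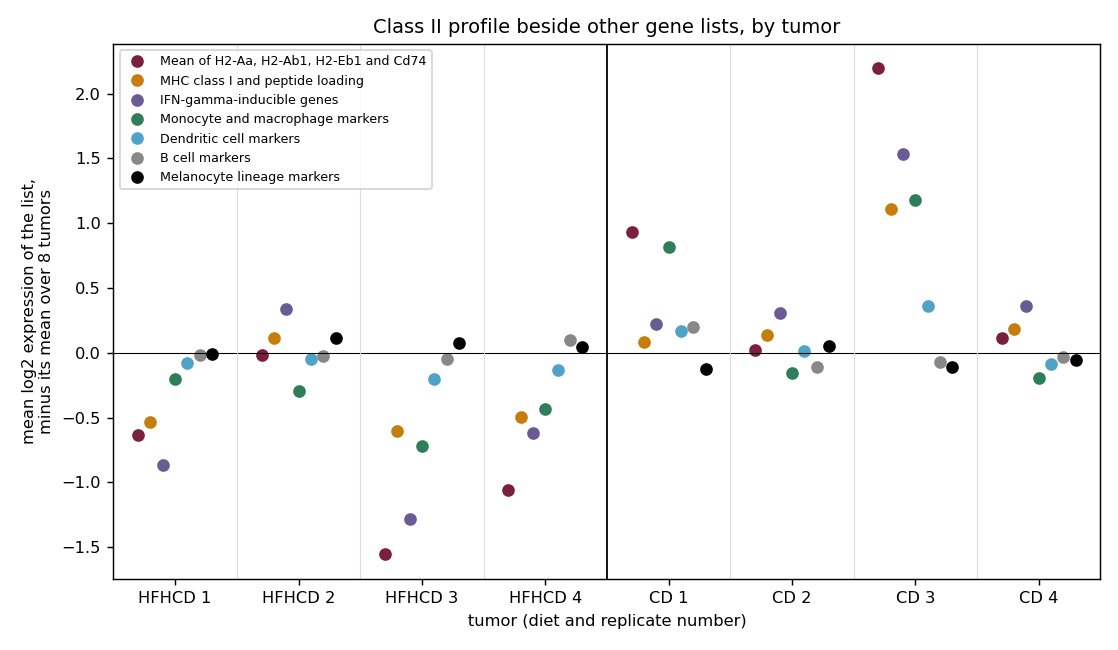
Mean log2 expression of H2-Aa, H2-Ab1, H2-Eb1 and Cd74 and of 6 gene lists in each tumor, each minus its own mean over the 8 tumors (vertical axis), with 4 HFHCD tumors on the left and 4 CD tumors on the right. The class II mean, the interferon-γ-inducible genes and the macrophage markers are lowest in HFHCD 3 and highest in CD 3, and the B cell and melanocyte markers stay near 0.

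The mean profile of H2-Aa, H2-Ab1, H2-Eb1 and Cd74 over the 8 tumors, each gene centred on its own mean, spanned 3.75 log2 units between its highest and lowest tumor. Likeness to it was measured as the root mean square difference of a gene's centred log2 values, which had a median of 1.12 over all genes. Ctss, which was not used to form the profile, was the closest of all genes, at 0.172. Among genes outside the 10, Gm35498 (0.249) and AW112010 (0.273), a predicted and a clone-named gene, were left out of the naming. The 6 closest of the remaining genes were Mndal, an interferon-inducible gene of the HIN-200 family (0.255), Plbd1, a lysosomal hydrolase gene (0.258), Psmb8 (0.262), the monocyte chemokine receptor gene Ccr2 (0.277), the interferon-γ-induced chemokine gene Cxcl9 (0.288) and Ptprc, the gene of the leukocyte antigen CD45 (0.289). Ptprc had log2 levels of 5.36, 5.40, 4.52 and 5.06 in HFHCD tumors 1 to 4, against 6.77, 6.18, 8.55 and 5.72 in CD tumors 1 to 4, and no overlap between the diets. H2-DMa ranked 171 among all genes in likeness, H2-DMb1 648, Ciita 714, H2-Ob 877 and H2-Eb2 5069. The measure follows the size of a gene's changes as well as their order, and 8 tumors are the only points behind it, so it is a description.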

How the data were processed

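RNA of 8 whole tumors was measured on Affymetrix MouseGene2.0ST arrays. The authors deposited log2 values, made according to the submitters' processing notes with Affymetrix Expression Console and RMA (versions not given in the sources used here). RMA subtracts background, gives all arrays a common distribution and averages the probes of a gene robustly, which can compress differences. Of 25429 probe sets, each for 1 Entrez gene, 24675 had a symbol and were tested, and 754 entered only an alternative.

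Diets were compared with limma 3.58.1 (lmFit, eBayes; R 4.3.3), with no covariate, pairing or filter. P-values were adjusted by Benjamini-Hochberg over all genes. Exact two-sided permutation tests covered the 10 genes. The fit was tested on simulated data. Summaries and figures used Python 3.11.15, pandas 2.3.3 and matplotlib 3.10.9. The number of arrays limits the precision.

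Genes and lists were chosen with earlier results of these data known. Named genes are the 10 genes, up to 4 per list with the smallest p, and the 6 closest in pattern once predicted and clone-named genes are left out, with exceptions marked. Groups come from the titles, with HFD read as HFHCD.

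Alternatives were a replicate block, each tumor left out in turn, CD 1 and CD 3 left out, array weights, a trended and robust prior, the methods' t-test, median centring, quantile normalization, a filter for genes above 4.5 on at least 4 arrays, and all probe sets.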

Additional observations from a re-analysis of the deposited data

Results flagged for a closer look

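In 20 groups of 4 tumors (10 genes on 2 diets), the gap between the highest or lowest tumor and its nearest neighbour was set against the range of the group, and the limit was Dixon's 95% critical value for 4 values. Tumor CD 3 passed it in Cd74, at 11.58 on the log2 scale against 9.79 in the next CD tumor, with a gap of 0.855 of the range. It also passed it in H2-DMa, at 7.44 against 6.29, with a gap of 0.847 of the range. Chance alone puts about 1 group in 20 past this limit.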

How the results depend on the processing

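No log2 fold change of the 10 genes changed sign in 168 comparisons with an alternative, and 153 kept their side of limma's unadjusted threshold, 10 lost it and 5 gained it. H2-Aa, H2-Ab1, Cd74 and Ctss were called in all 17 alternatives. H2-Eb1 was called in 11 of 17 and H2-Ob in 12 of 16. No gene had an adjusted p under 0.05 in any of these settings, and the smallest among the 10 genes was 0.196.

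The number of the 10 genes called lower ran from 4 to 8 with 1 tumor left out, against 2.56% to 7.16% of all genes. It was 4 without CD 1 and CD 3, 5 with the methods' t-test, with array weights and with dim genes left out (8 genes tested), and 7 with quantile normalization. With the replicate block it was 6. The titles state no pairing, so the numbers were not taken to pair the tumors. Deviations from the diet mean correlated at 0.269, -0.0293, -0.265 and 0.0507 between same-numbered tumors.

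Over all genes, 2141 were called, 1485 to 3709 when 1 tumor was left out (most without CD 1), 3586 without CD 1 and CD 3 and 3510 with array weights. Of these 966 were lower, 632 to 1767 when 1 tumor was left out, 1776 without CD 1 and CD 3, 1582 with array weights and 632 with dim genes left out. Of the 40 other pathway genes 10 were called lower, 3 to 11 when 1 tumor was left out (4 without CD 3, 5 without HFHCD 1, 6 without HFHCD 2, 4 without HFHCD 3 and 3 without HFHCD 4), 1 without CD 1 and CD 3, 2 with the methods' t-test and 4 with array weights. The share of all genes called lower was 3.91% with all tumors, 7.2% without CD 1 and CD 3 and 3.39% with the methods' t-test. It was 6.41% with array weights, 3.98% with the replicate block, 4.42% with quantile normalization and 4.26% with dim genes left out. Fewer tumors or genes enter the left-out settings. Why the counts rose in some settings and fell in others was not tested. H2-Eb2 and H2-Ob were dim, which limits what these arrays show of them.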
